A study of Mus musculus with 12 samples.

Results

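The 9 genes Bard1, Brca1, Brca2, Palb2, Rad54l, Fanca, Fancd2, Fanci and Blm, of homologous recombination and the Fanconi anaemia pathway, were followed across whole mouse embryos at E10.5, a mid-gestation stage at which the organs are forming. They are 9 of the 18193 genes that had a probe set with a single gene symbol in the platform annotation. Bard1 was picked for its low values in double mutants, so its differences in comparisons with double mutants are a description and carry no test, and the other 8 were listed as genes of the same repair pathways. The 12 embryos fell into 4 genotypes of 3: double (Acdacd/acd together with p53-/-), acd (Acdacd/acd), p53 (p53-/-) and wt. Strain, litter and the alleles themselves are not described in the sources used here, and the labels call the replicates biological. RNA was hybridised to Affymetrix 3′ expression arrays, 1 array per embryo, and the deposited values are log2 values from RMA, a method that forces the arrays to near-equal distributions.

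Homologous recombination copies the sequence of an intact sister chromatid to mend a broken one, mostly in cells that have replicated their DNA. BRCA1 works as a heterodimer with BARD1, each partner contributing a RING domain to a ubiquitin ligase; PALB2 bridges BRCA1 to BRCA2, BRCA2 acts at the resected single-stranded DNA, and RAD54L is a DNA translocase of the same pathway. FANCA belongs to the Fanconi core complex, which ubiquitinates the FANCD2-FANCI clamp at DNA interstrand crosslinks, and BLM is a RecQ helicase that takes recombination intermediates apart. Acd encodes TPP1, a shelterin protein that protects telomeres, and telomeres without shelterin are known to be treated by the cell as DNA breaks.

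Double mutant replicates 1 and 2 stood apart from all other arrays. Their median correlations with the other arrays over 13501 tested genes were 0.972 and 0.987, against 0.995 to 0.997 for the other 10 arrays. The Acd transcript measured 8.24 to 8.44 in double mutants and 8.22 to 8.31 in acd embryos. These values lay below the 8.84 to 9.05 of p53 embryos and the wt embryos (8.988 to 8.999), with no overlap. The p53 transcript was not analysed here. All listed markers of neurons (13 of 13), heart (9 of 9), somites (8 of 8) and limb bud (6 of 6) lay above the 40th percentile of every array, as did 2 of 5 matched placenta markers. Y-linked transcripts were present in 1 of 3 double mutant, 3 of 3 acd, 3 of 3 p53 and 1 of 3 wt embryos, and double mutant replicate 1 was the one of its genotype that had them.

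The 9 genes were read by 20 probe sets, and the values below are those of the brightest probe set of each gene, on average over all arrays. All 9 of these lay above the 40th percentile of their array on all 12 arrays, where testing required it in at least 3. In the 9 arrays of acd, p53 and wt embryos most of them varied little: the span between the lowest and the highest of those arrays had a median of 0.19 over the 9 genes, against 0.29 over all tested genes. Bard1 (0.50), Fancd2 (0.35) and Fanca (0.34) spanned more than that. The spread lay among the double mutants, where the SD between embryos had a median of 0.33 over the 9 genes, against 0.05 in acd, 0.06 in p53 and 0.05 in wt embryos. Over all tested genes these median SDs were 0.21, 0.07, 0.10 and 0.06. Double mutants had the widest spread for 8 of the 9 genes, the exception being Fanca. The share of all tested genes with their widest spread in double mutants was not counted, so this count is a description.

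**Figure D1:**
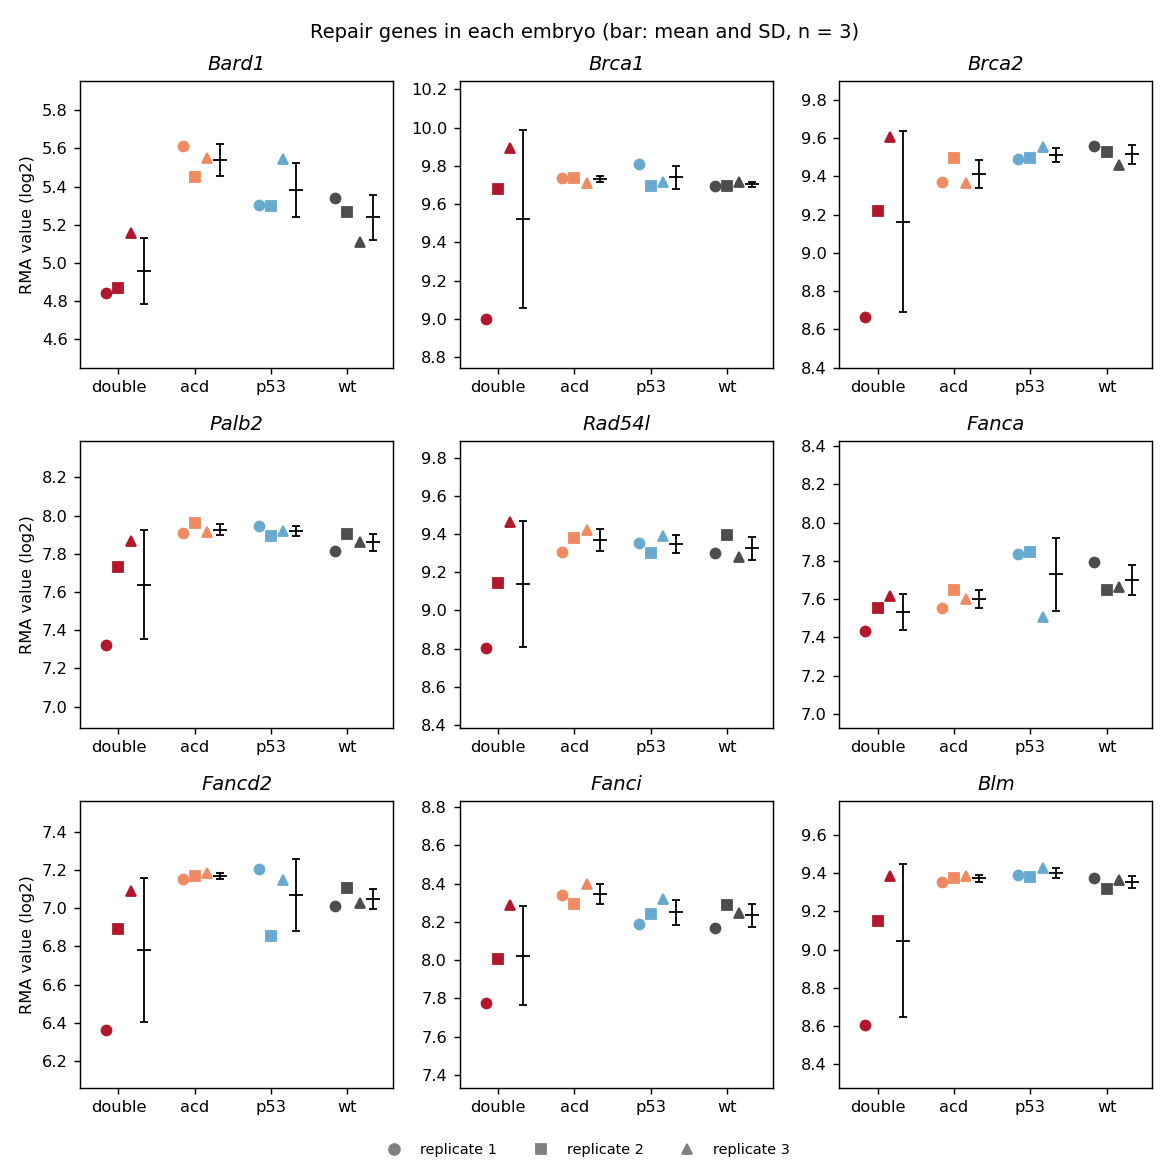
RMA log2 values of the 9 repair genes (vertical axis, a range of 1.5 log2 units in each panel) in the 3 embryos of each genotype (horizontal axis); marker shapes give the replicate number and the black bars the mean and SD, n = 3. Double mutant replicate 1 is the lowest of the 12 arrays in all panels, and replicate 3 lies with or above the other genotypes in most.

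Bard1, the obligate partner of Brca1, was read by 1 probe set (1420594_at) on chromosome 1. It measured 4.84, 4.87 and 5.15 in double mutants, 5.61, 5.45 and 5.55 in acd embryos, 5.31, 5.30 and 5.54 in p53 embryos and 5.34, 5.27 and 5.11 in wt embryos. Every double mutant lay below every acd and every p53 embryo, while double mutant replicate 3 lay within the wt range. These values are close to the array medians of 5.32 to 5.40, with 42.0 to 47.3% of probe sets below Bard1 in double mutants and 46.6 to 53.3% in the other arrays, so the signal is weak and background can compress its differences. As deposited, the mean was 4.96 ± 0.17 in double mutants, against 5.54 ± 0.08 in acd, 5.38 ± 0.14 in p53 and 5.24 ± 0.12 in wt embryos (SD, n = 3 each). The difference was -0.58 against acd, -0.43 against p53 and -0.28 against wt, and the order of the genotype means was double, wt, p53 and acd from low to high. Double mutant replicate 3 alone, left after leaving out replicates 1 and 2, lay 0.38 log2 units under the acd mean (-0.38), 0.23 under the p53 mean (-0.23) and 0.084 under the wt mean (-0.084). In acd against wt, which the choice of Bard1 did not use although the acd arrays are shared with it, Bard1 was 0.30 ± 0.11 (SE) higher with no overlap and did not pass limma's test (adjusted p = 1).

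The promoters of 8 of the 9 genes were available from RefSeq (build GRCm38.p6), as windows from 250 bases before to 50 bases after the start site. Those of Bard1, Brca2 and Blm are shown because Bard1 is the gene the group was built around, Brca2 had the lowest value of the group relative to wt in double mutant replicate 1, and Blm followed the mean of the 8 genes other than Bard1 most closely (Pearson r = 0.99 over 12 arrays). Capitals mark matches, on either strand, to motifs of cell cycle promoters: TTTCCCGC, TTTGGCGC, TTTCGCGC and TTTGCCGC (E2F-type), TTTGAA (the cell cycle homology element) and CCAAT (the NF-Y box).
Bard1 (chr1:71102923-71103222, minus strand): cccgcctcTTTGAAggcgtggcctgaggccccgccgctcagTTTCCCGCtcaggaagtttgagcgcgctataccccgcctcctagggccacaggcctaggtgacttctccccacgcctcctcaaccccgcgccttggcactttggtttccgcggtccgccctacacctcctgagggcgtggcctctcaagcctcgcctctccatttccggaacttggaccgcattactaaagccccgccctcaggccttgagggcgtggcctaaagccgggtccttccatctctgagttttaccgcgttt
Brca2 (chr5:150522371-150522670, plus strand): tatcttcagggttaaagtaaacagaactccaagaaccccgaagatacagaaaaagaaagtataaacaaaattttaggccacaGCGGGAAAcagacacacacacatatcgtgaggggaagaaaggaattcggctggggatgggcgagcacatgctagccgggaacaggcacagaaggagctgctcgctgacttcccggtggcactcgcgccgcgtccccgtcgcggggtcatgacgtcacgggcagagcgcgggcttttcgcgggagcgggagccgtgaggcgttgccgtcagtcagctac
Blm (chr7:80534949-80535248, minus strand): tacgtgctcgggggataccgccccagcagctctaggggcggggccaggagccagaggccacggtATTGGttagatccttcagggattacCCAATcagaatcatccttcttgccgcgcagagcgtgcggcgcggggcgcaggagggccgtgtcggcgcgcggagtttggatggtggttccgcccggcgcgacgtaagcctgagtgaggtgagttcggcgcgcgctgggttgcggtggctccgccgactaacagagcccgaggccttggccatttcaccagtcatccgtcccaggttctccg
TTTCCCGC was found in 2 of the 8 windows, those of Bard1 and Brca2, and in 1.07% of all 32851 windows. TTTGAA was found in 1 of the 8, that of Bard1, where it begins at position -242 and TTTCCCGC at position -209 from the start site, and in 17.9% of all windows. CCAAT was found in 5 of the 8 (Blm, Brca1, Fanca, Palb2 and Rad54l) and in 37.4% of all windows; Blm held it once on each strand. The other E2F-type spellings were found in 0 of the 8. A match describes the letters in the window and no binding.

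Brca1, on chromosome 11, measured 8.999, 9.68 and 9.89 in double mutants, 9.74, 9.74 and 9.71 in acd embryos, 9.81, 9.69 and 9.72 in p53 embryos and 9.70, 9.70 and 9.72 in wt embryos. Replicate 1 of the double mutants was the lowest and replicate 3 the highest of all 12 arrays, so the double mutants spanned the other genotypes on both sides. Their mean of 9.52 ± 0.47 compared with 9.73 ± 0.02 in acd, 9.74 ± 0.06 in p53 and 9.70 ± 0.01 in wt embryos (SD, n = 3 each). The difference against acd was -0.21 ± 0.17 (SE; 95% interval up to 0.17), and without double mutant replicate 1 it was 0.055. In double mutant replicate 2 Brca1, like Bard1, lay below all arrays of the other genotypes, at 9.677 against 9.693 in the lowest of them; in replicate 3 Brca1 lay above all of them, where Bard1 lay within the wt range. Of the other 3 probe sets of Brca1, 1451417_at measured 6.49, 6.80 and 7.16 in double mutants, against 7.41, 7.19 and 7.28 in acd embryos. The values of 1424630_a_at were 5.53, 5.87 and 6.16, against 6.27, 6.06 and 6.20. With both of these, replicate 3 was not above the acd range. The values of 1427698_at were 5.17, 4.86 and 5.31, against 5.18, 5.27 and 5.05. With it, replicate 3 was the highest and replicate 2 the lowest of the 12 arrays.

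Brca2, the partner of Palb2 in recombination, measured 8.66, 9.22 and 9.61 in double mutants, 9.37, 9.50 and 9.37 in acd embryos, 9.49, 9.50 and 9.55 in p53 embryos and 9.56, 9.53 and 9.46 in wt embryos. Double mutant replicates 1 and 2 lay under, and replicate 3 over, all arrays of the other genotypes. The level in replicate 1 was 0.554 of the wt mean, the lowest such ratio among the 9 genes. Palb2, the bridge between Brca1 and Brca2, measured 7.32, 7.73 and 7.87 in double mutants, 7.91, 7.96 and 7.91 in acd embryos, 7.95, 7.89 and 7.92 in p53 embryos and 7.81, 7.90 and 7.86 in wt embryos. All 3 double mutants lay below all acd and all p53 embryos, but replicate 3 lay within the wt range. Rad54l, the translocase, measured 8.81, 9.15 and 9.46 in double mutants and 9.28 to 9.42 in the other 9 arrays, so replicates 1 and 2 lay under and replicate 3 over that range. Of its other probe sets, 1423123_at gave 6.92, 7.20 and 7.77 in double mutants, against 7.59, 7.62 and 7.78 in acd embryos, and 1423124_x_at gave 6.84, 7.18 and 7.69, against 7.56, 7.71 and 7.77.

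**Figure D2:**
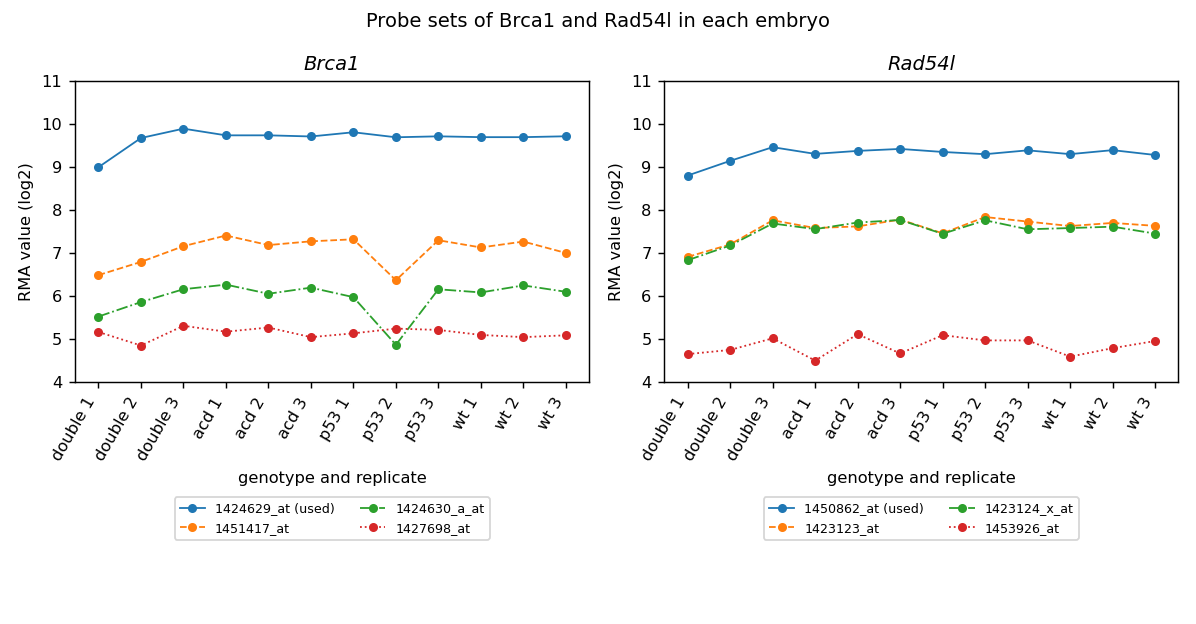
RMA log2 values (vertical axis) of the 4 probe sets of Brca1 and the 4 of Rad54l in each of the 12 arrays (horizontal axis, genotype and replicate); each line joins 1 probe set's values. The upper 3 probe sets of Rad54l are lowest in double mutant replicate 1, while 2 of Brca1 have their lowest value in p53 replicate 2, at 6.37 and 4.87.

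The Fanconi genes did not all measure alike across genotypes, and differences between them were not tested. Fancd2, the ubiquitinated clamp subunit, measured 6.36, 6.89 and 7.09 in double mutants, 7.15, 7.17 and 7.18 in acd embryos, 7.20, 6.85 and 7.15 in p53 embryos and 7.01, 7.11 and 7.03 in wt embryos. All double mutants lay below all acd embryos, but p53 replicate 2 lay below double mutant replicates 2 and 3. Fanci, its partner in the clamp, measured 7.77, 8.004 and 8.29 in double mutants, 8.34, 8.29 and 8.40 in acd embryos, 8.19, 8.24 and 8.32 in p53 embryos and 8.17, 8.29 and 8.25 in wt embryos. Here too the double mutants did not overlap the acd embryos, the highest double mutant (8.290) and the lowest acd embryo (8.294) being nearly equal, and replicate 3 lay inside the p53 range. Fanca, of the core complex, differed least between double mutants and acd embryos: it measured 7.43, 7.55 and 7.62 in double mutants, 7.55 to 7.65 in acd embryos, 7.51 to 7.84 in p53 embryos and 7.65 to 7.79 in wt embryos. Its acd and double mutant values both lay below its wt values without overlap, but the highest acd (7.648) and lowest wt embryo (7.650) were nearly equal. In acd against wt Fanca measured -0.10 ± 0.10 (SE), and 9.86% of all tested genes lay lower without overlap, so a difference is not established. Fanca lies on chromosome 8, as Acd does, so any acd effect on Fanca and DNA inherited with the acd chromosome cannot be told apart. Fancd2 had 3 further probe sets; 1438339_at gave 5.76, 6.05 and 6.42 in double mutants, against 6.24 to 6.38 in acd embryos, and the other 2 lay below the 40th percentile on all arrays.

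Blm, the RecQ helicase, measured 8.61, 9.15 and 9.39 in double mutants, 9.35, 9.38 and 9.39 in acd embryos, 9.39, 9.38 and 9.43 in p53 embryos and 9.37, 9.32 and 9.36 in wt embryos. The 9 arrays of the other genotypes spanned 0.11, and double mutant replicate 1 lay 0.75 below the wt mean (-0.75), a level of 0.596 of wt, with replicate 2 at 0.868 and replicate 3 at 1.02 of wt. Array by array, double mutant replicate 1 lay below all 9 arrays of the other genotypes for 9 of 9 genes, where 33.6% of all tested genes did so. Replicate 2 did so for 7 of 9, against 25.8% of all tested genes, the exceptions being Fanca and Fancd2. Replicate 3 did so for 0 of 9, against 12.4%, and lay above all 9 for Brca1, Brca2 and Rad54l, against 8.77%. The same order, replicate 1 lowest and replicate 3 highest, held within the double mutants for 9 of 9 genes and for 21.9% of all tested genes. These counts include Bard1, and they were made after the values were seen.

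In double against acd, which asks what the loss of p53 changes in embryos homozygous for acd, the 8 genes other than Bard1 all measured lower, where 52.8% of all tested genes did, and 0 of 8 passed limma's test at an adjusted p of 0.05, as did 0% of the 13501 genes. At an unadjusted p under 0.05, 4 of 8 were lower (Palb2, Fancd2, Fanci and Blm), against 6.27% of all tested genes, and 3 of 8 did not overlap (Palb2, Fancd2 and Fanci), against 6.9%. The differences were -0.39 ± 0.15 (SE) for Fancd2, -0.33 ± 0.15 for Blm, -0.32 ± 0.11 for Fanci and -0.29 ± 0.11 for Palb2, with limma adjusted p of 0.377, 0.397, 0.371 and 0.377. Brca2 measured -0.25, Rad54l -0.23, Brca1 -0.21 and Fanca -0.066. The median over these 8 genes was -0.27, against -0.01 over all tested genes, and it was -0.085 without double mutant replicate 1, 0.016 without replicates 1 and 2, -0.43 without replicate 3 and -0.47 with embryo sex as a term. Embryo sex differed only within the double mutants and within wt, so the sex term is estimated there. Replicate 1 was the one double mutant with Y-linked transcripts, so sex and that embryo cannot be told apart among double mutants. Without double mutant replicate 3, 6 of 8 passed (Brca2, Palb2, Rad54l, Fancd2, Fanci and Blm; limma adjusted p 0.00815 to 0.0374), as did 13.9% of all tested genes; without replicates 1 and 2, which leaves 1 double mutant assumed to vary like the other genotypes, 0 of 8 did, against 0.23% of all tested genes. With array weights, which lower the influence of arrays that stand apart, 1 of 8 passed (Fanci, -0.30, limma adjusted p = 0.0284), as did 13.1% of all tested genes.

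In double against p53, which asks what homozygous acd changes without p53, the 8 genes again all measured lower (52% of all tested genes did) and 0 of 8 passed limma's test, against 0.00741% of all tested genes. Palb2 and Blm, 2 of 8, had an unadjusted p under 0.05 and were lower, against 5.67%, and Palb2 alone did not overlap, against 5.01%. Palb2 measured -0.28 ± 0.11 and Blm -0.35 ± 0.15 (SE; limma adjusted p = 0.463 for both), Brca2 -0.35, Fancd2 -0.29, Fanci -0.23, Brca1 -0.22, Rad54l -0.21 and Fanca -0.20. The median over the 8 genes was -0.25, or -0.10 without double mutant replicate 1, 0.031 without replicates 1 and 2 (0 of 8 passing, against 0.207%), -0.40 without replicate 3 and -0.47 with embryo sex as a term. Without double mutant replicate 3, 5 of 8 passed (Brca2, Palb2, Rad54l, Fanci and Blm; limma adjusted p 0.0198 to 0.0349), as did 13% of all tested genes. In double against wt 0 of 8 passed (0.0148% of all tested genes), 0 of 8 had an unadjusted p under 0.05 and were lower (6.41%), 8 of 8 measured lower (53.2%), and Fanca alone did not overlap (8.24%). The median over the 8 genes was -0.22, or -0.073 without double mutant replicate 1, 0.049 without replicates 1 and 2 (0 of 8 passing, against 0.193%) and -0.36 without replicate 3. Without replicate 3, 4 of 8 (Brca2, Rad54l, Fanci and Blm) passed, against 12.2% of all tested genes. These comparisons share the double mutant arrays, so their like values are not separate observations.

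**Figure D3:**
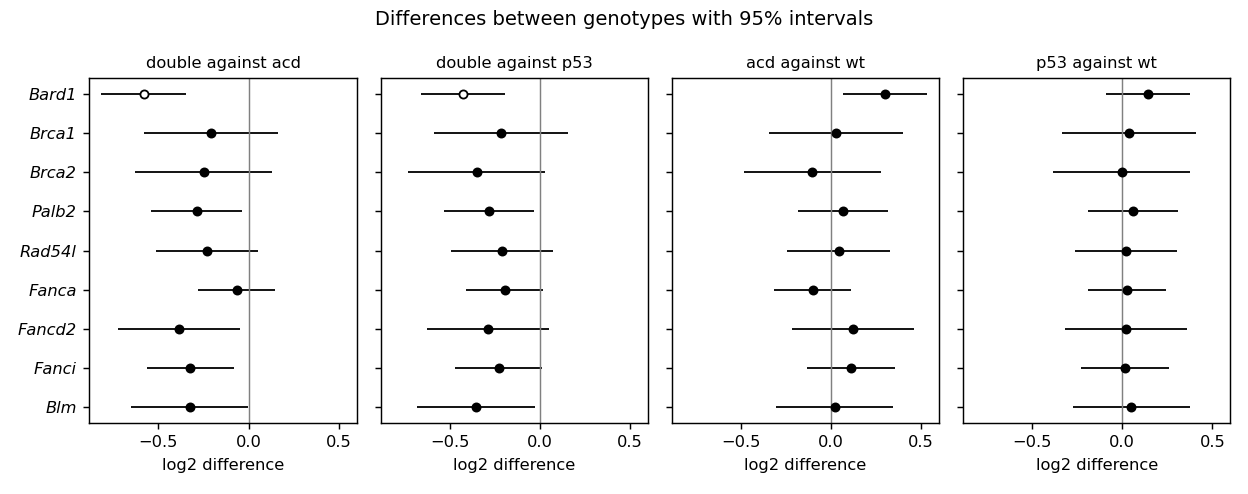
Log2 differences between genotypes for the 9 genes (horizontal axis) with 95% intervals from limma, in double against acd, double against p53, acd against wt and p53 against wt; open circles mark Bard1 where it was picked on the comparison and has no test. The intervals of Palb2 and Blm lie below 0 in both double mutant comparisons, those of Fancd2 and Fanci only in double against acd, and no interval of the other 8 genes excludes 0 in the single mutants.

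In acd against wt 0 of 9 passed limma's test, against 0.0148% of all tested genes, and 1 of 9, Bard1, had an unadjusted p under 0.05 and was higher, against 0.637%, while 0 of 9 were lower, against 1.13%. The choice of Bard1 by its fall in double mutants shares the acd arrays and can favour genes high in them. Its place in the counts of acd against wt is therefore a description. The 8 other differences ran from -0.10 (Brca2 and Fanca) to 0.12 (Fancd2), and the 95% interval of Fancd2 ran from -0.22 to 0.46. The acd embryos lay above the wt embryos without overlap for 4 of 9 genes (Bard1, Palb2, Fancd2 and Fanci), against 7.24% of all tested genes, and below them for 1 of 9 (Fanca), against 9.86%. In p53 against wt 0 of 9 passed, against 0%, and 0 of 9 had an unadjusted p under 0.05 and were lower (0.393% of all tested genes) or higher (0.333%). Blm alone, 1 of 9, lay above wt without overlap, against 3.42%. The 8 differences other than Bard1 lay between -0.00217 (Brca2) and 0.06 (Palb2), and Bard1 measured 0.14 ± 0.11 (SE). With embryo sex as a term the median over the 9 genes was 0.25 in acd against wt and 0.22 in p53 against wt, where it was 0.043 and 0.028 without it. All acd and all p53 embryos had Y-linked transcripts. The sex term therefore rests on the double mutants, where it cannot be told apart from replicate 1, and on the wt embryos. The spread is estimated over all 4 genotypes, so the wide double mutants also widen these intervals.

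The interaction subtracts the effect of acd with p53 present (acd against wt) from its effect in p53-/- embryos (double against p53), and asks whether the effect of acd differs without p53. It was below 0 for 8 of 8 genes (51% of all tested genes), 0 of 8 passed limma's test (0% of all tested genes), and 0 of 8 had an unadjusted p under 0.05 and were below 0 (1.47%). Palb2 measured -0.35 ± 0.16 and Fanci -0.34 ± 0.16 (SE; limma adjusted p = 0.879 for both), and Bard1, given as a description, -0.72. Without double mutant replicate 3 Fanci had the lowest limma adjusted p of the 8, 0.0564, so 0 of 8 passed (3.25% of all tested genes), and the median over the 8 genes was -0.30 with all arrays, -0.12 without replicate 1 and -0.022 without replicates 1 and 2 (0 of 8 passing, against 0.185%).

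Other genes of the same pathways were set beside the 8 genes, leaving out Bard1 because it was picked on its double mutant values. Relative to wt, the mean of the 8 genes was -0.60, -0.17 and 0.059 in double mutant replicates 1, 2 and 3 and between -0.015 and 0.060 in the other arrays. For 27 other homologous recombination genes it was -0.14, -0.16 and 0.03, for 16 other Fanconi genes -0.08, -0.12 and -0.000149, for 7 partners and relatives of Blm -0.27, -0.16 and -0.02, and for 6 genes of the Brca1-A complex and Bap1 0.09, -0.17 and 0.00. For 23 proliferation genes (DNA replication and mitosis) it was -0.39, -0.09 and 0.05. None of these differences between lists was tested.

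**Figure D4:**
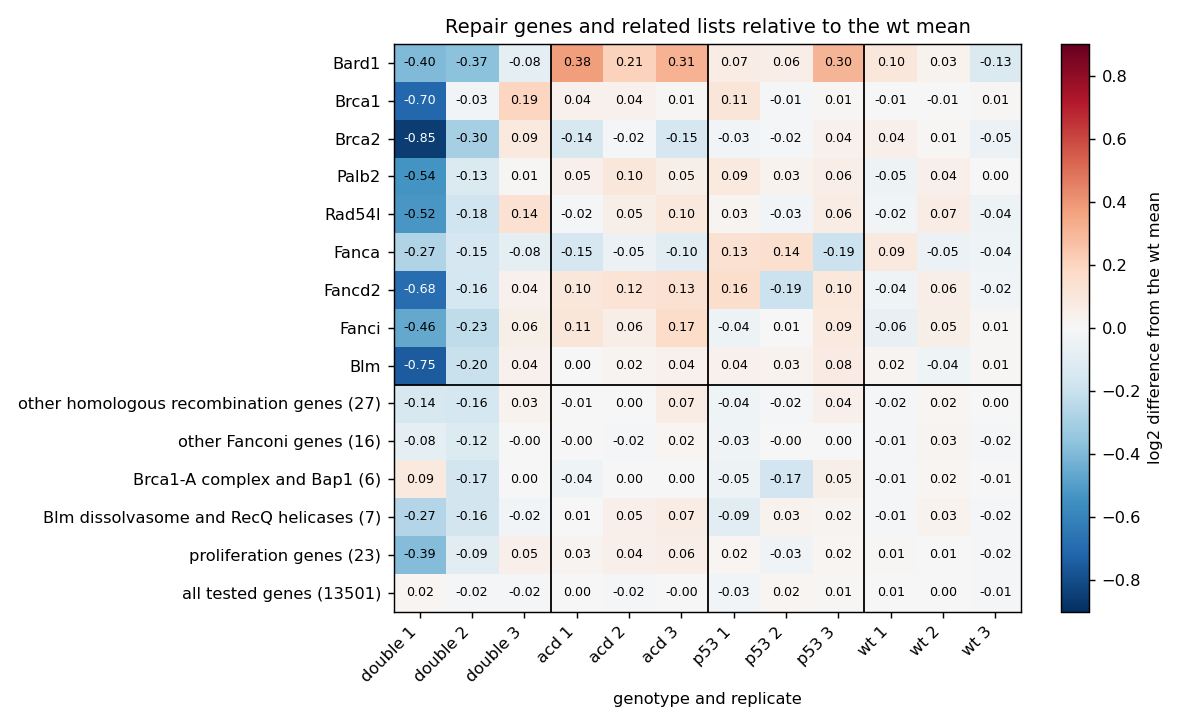
Log2 difference from the wt mean (colour and printed value) for each of the 9 genes and for the means of related lists, with the number of tested genes in brackets (rows; the last row is the median of all tested genes), in each array (columns, double mutants first). The column of double mutant replicate 1 holds the lowest value of each of the 9 gene rows, and that of replicate 3 lies near 0.

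In double against acd 0 members of these 5 lists passed limma's test. Of the 27 other homologous recombination genes 21 measured lower, with a median of -0.12; the smallest p-values were those of Brip1, a helicase that binds Brca1 (-0.46 ± 0.14 SE, adjusted p = 0.371), Fignl1, an AAA ATPase (-0.21 ± 0.07), and Mre11a, the nuclease of the break-sensing MRN complex (-0.33 ± 0.14). Of the 16 other Fanconi genes 11 were lower, with a median of -0.07, and Rfwd3, Ercc4 and Fance measured -0.19, -0.15 and -0.17. All 7 of the Blm list were lower, with a median of -0.10, among them Top3a, the topoisomerase that works with Blm (-0.31 ± 0.11), Recql (-0.38) and Recql4 (-0.35). Of the 6 genes of the Brca1-A complex and Bap1 4 were lower, with Brcc3, a deubiquitinase, at 0.14, Babam1 at 0.10 and Babam2 at -0.11. Of the 23 proliferation genes 21 were lower, with a median of -0.19; Ccne1, cyclin E1, measured -0.30 ± 0.08, Aurkb, a mitotic kinase, -0.36 ± 0.10 and Cdc6, a replication licensing factor, -0.42 ± 0.17.

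In acd against wt 0 members of the 5 lists passed either, and the medians lay between -0.022 (Brca1-A complex and Bap1) and 0.061 (proliferation). Gen1, a resolvase of recombination intermediates, measured 0.24 ± 0.11 (SE), Fignl1 0.11 and Eme1 -0.11. Faap100, Fancc and Usp1 measured -0.15, -0.12 and -0.08, Bap1, Brcc3 and Uimc1 -0.06, 0.08 and -0.03, and Rmi2, Recql5 and Rmi1 0.25, -0.06 and 0.04. Ccne1 and Aurkb, low in double mutants, measured 0.18 ± 0.08 and 0.18 ± 0.10 in acd embryos, and Mki67, a marker of cycling cells, -0.19. Each had a limma adjusted p of 1.

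Across the 12 arrays the genes whose pattern was most like that of Bard1 were Cars (Pearson r = 0.93), Ccne1 (0.92), Gfm1 (0.91), Supv3l1 (0.90) and Olig2 (0.90). Over the 10 arrays without double mutant replicates 1 and 2 the same genes had r of 0.80, 0.79, 0.76, 0.73 and 0.82. Among the 8 other repair genes Fanci was closest to Bard1 (0.84, or 0.59 over 10 arrays) and Fanca least close (0.19), with Brca1 at 0.52, or -0.33 over 10 arrays. The mean z-score of the 8 other genes was most like Mybbp1a (0.99), Heatr1, Igf2bp1, Mcm7 and Snx18, for which r over 10 arrays was 0.50 to 0.65. Within the 8 genes the median r of 28 pairs was 0.91, and 0.17 over the 10 arrays, so the likeness among them rests mostly on double mutant replicates 1 and 2. These are descriptions over arrays that share genotypes and normalization.

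Other measures moved with double mutant replicates 1 and 2. Relative to wt, the mean of 7 tested interferon genes was 3.65 and 3.21 in replicates 1 and 2 of the double mutants and 0.28 in replicate 3, with 0.32 as the highest of the other arrays, and that of 12 tested macrophage markers 1.31, 0.90 and -0.17, with 0.16 as the highest of the others; 10 of 14 macrophage markers lay above the 40th percentile on every array, Aif1, Cd14, Fcgr1 and Ptprc being the exceptions. The mean of 10 liver and visceral endoderm markers was 1.74, 1.42 and 0.32 in the double mutants, and 1.24 in p53 replicate 2, in which the mean of the 9 repair genes was 0.00. As signs of RNA quality, the 3′ over 5′ difference of the Actb control probe sets was 0.48, 0.39 and 0.39 in double mutants and 0.37 to 0.51 in the other 9 arrays, and that of Gapdh 0.01, 0.16 and 0.08, against 0.04 to 0.20. The part of these measures in the repair gene values was not tested. In RNA of whole embryos, fewer cells that express a gene and less of its RNA per cell cannot be told apart.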

How the data were processed

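The 12 arrays, 3 per genotype, each measured 1 labelled RNA sample (input 250 ng, per the labels' protocols); titles gave genotypes and replicate numbers. The deposited values are log2 expression values that the authors made with justRMA, and the authors selected genes with BRB-Array tools 4.4.0, per the series' design text. Their gene selection was not used here. The values ran from 2.60 to 14.7 and were used as deposited; no signal over background is given per probe set, and the number of arrays limits the precision. Of 45101 probe sets, 34945 had 1 gene symbol, 932 several and 9211 were not listed; RefSeq (GRCm38.p6) matched 34741 by gene identifier and changed 0 symbols. Of each gene's probe sets the one with the highest mean was kept, and 13501 genes that exceeded percentile 40 of the array in at least 3 arrays were tested.

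With limma 3.58.1 (R 4.3.3) genotype means were estimated jointly on the 12 arrays; its moderated tests were two-sided, and p-values were adjusted by Benjamini-Hochberg over all tested genes, with a threshold of 0.05. Simulated data for double against acd covered 13501 genes. Of genes changed by 0.5 log2 units 46% were called, and of those changed by 1 log2 unit 92%. These rates did not carry over to the measured arrays. There the 7 tested interferon genes had a median log2 difference of 2.24 in double against acd, and 0 of 13501 genes passed. The median SD over the 9 members was 0.33 in double mutants and 0.05 in acd embryos. The simulated rates are therefore not taken as the power of the tests here. The named genes are the 9 members, Acd, the 3 genes with the smallest p in double against acd and in acd against wt from each of 5 lists, and the 5 most correlated with Bard1 and with the mean of the other 8. The members, lists, rules and alternatives were chosen with earlier results of these data known. Alternatives were a replicate block, other filters, probe set rules, centring, variance models, array weights, only the genotypes compared, sex as a term, another threshold, and left-out arrays.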

Additional observations from a re-analysis of the deposited data

Results flagged for a closer look

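Bard1 and Palb2 were singled out for the order of their embryos. Every acd embryo lay above every wt embryo, while every double mutant lay below every p53 embryo. Of all tested genes 7.24% showed the first order and 5.01% the second, and the share with both was not counted. The interaction measured -0.72 for Bard1, which was picked on the double mutants and has no test, and -0.35 for Palb2 (limma adjusted p = 0.879, not passing). Without double mutant replicates 1 and 2 it was -0.53 for Bard1 and -0.12 for Palb2, and without replicate 1 alone -0.67 for Bard1 and -0.19 for Palb2. The highest double mutant and the lowest p53 embryo of Palb2 were 7.87 and 7.89, so its separation rests on a small gap. Its lowest acd and highest wt embryo were closer still, at 7.908 and 7.904. Palb2 measured 0.067 ± 0.11 (SE) in acd against wt, so a rise in acd embryos is not shown.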

How the results depend on the processing

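Same-numbered embryos of different genotypes correlated at -0.23 to 0.39, and 7 of 18 pairs exceeded 0.1. Differently numbered embryos were not compared, so these values cannot show whether the numbers pair embryos. The counts of genes passing limma's test were 0 in all 6 comparisons, and they stayed 0 with the replicate number as a block. They differed in 4 cases: array weights gave 1 of 8 in double against acd, and leaving out each embryo in turn gave 0 to 6 in double against acd, 0 to 5 in double against p53 and 0 to 4 in double against wt, each maximum being without double mutant replicate 3. Without double mutant replicates 1 and 2 the sign turned for Brca1 (0.16), Brca2 (0.19), Rad54l (0.095), Fanca (0.018), Blm (0.014), Babam1 (-0.024), Mre11a (0.030) and Recql4 (0.00215) in double against acd, for Rfwd3 in double against acd (0.00336), for Brca1 (0.15), Brca2 (0.092), Rad54l (0.12), Fancd2 (0.022) and Fanci (0.040) in double against p53, for Brca1 (0.19), Brca2 (0.090), Palb2 (0.0073), Rad54l (0.14), Fancd2 (0.042), Fanci (0.056) and Blm (0.035) in double against wt, and for Brca1 (0.13), Brca2 (0.20) and Rad54l (0.073) in the interaction. The sign also turned with sex as a term for Brca2 in acd against wt (0.12) and p53 against wt (0.22) and Brcc3 in acd against wt (-0.052), with array weights for Babam1 (-0.012) and Brcc3 (-0.029) in double against acd, and with the mean of a gene's probe sets for Brca1 (-0.11) and Fanca (-0.066) in p53 against wt and Rmi1 in acd against wt (-0.031). With the most variable probe set it turned for Brca1 in p53 against wt (-0.48), double against p53 (0.18) and the interaction (0.15), and in acd against wt for Fancc (0.018), Gen1 (-0.010), Recql5 (0.16) and Rmi1 (-0.21). Leaving out each embryo in turn, Brca1 ranged from -0.39 to 0.055 in double against acd, -0.40 to 0.046 in double against p53, -0.37 to 0.082 in double against wt and -0.43 to 0.019 in the interaction, and Brca2 from -0.47 to 3.87e-05 in double against acd and -0.47 to 0.0022 in the interaction. Babam1 ranged from -0.022 to 0.16 and Brcc3 from -0.018 to 0.24 in double against acd, Rmi1 from -0.000107 to 0.076 in acd against wt, Rad54l in p53 against wt from -0.00058 to 0.055, and in p53 against wt Brca2 from -0.030 to 0.020, Fanca from -0.030 to 0.14, Fancd2 from -0.048 to 0.13 and Fanci from -0.020 to 0.045. With sex as a term the median of the interaction was -0.71. That term rests on the double mutants and wt embryos only, and double mutant replicate 1 was the one of its genotype with Y-linked transcripts. The causes of the changes in this paragraph were not tested. Of 998 single-gene values under settings other than leaving out 1 embryo, 945 kept their direction and side of the threshold. Several of these settings, such as the replicate block, other filters, variance models and another threshold, leave the log2 differences themselves unchanged. Leaving out double mutants cannot move the differences in acd against wt or p53 against wt. The count is therefore no measure of robustness. With 3 embryos per genotype, of which the double mutants varied most, the precision is limited, and values near the array median, such as those of Bard1, are also limited by background.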

Other observations

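In p53 replicate 2 the probe sets of Brca1 did not move together. The probe set 1424630_a_at measured 4.87 in that embryo and 5.98 and 6.16 in the other p53 embryos, and 1451417_at measured 6.37, against 7.32 and 7.30. The probe set used for Brca1, 1424629_at, measured 9.69 in the same embryo and 9.81 and 9.72 in the others, and 1427698_at measured 5.25, against 5.14 and 5.22. Babam2, a member of the Brca1-A complex, also had its lowest value there, 8.33, against 8.92 and 9.04 in the other p53 embryos. Genes listed with it went both ways in that embryo. Babam1 had its lowest value of all arrays (9.99) and Bap1 its highest (10.93), while Brcc3 (10.14) and Uimc1 (8.98) were highest among the p53 embryos. A link between these values and the Brca1 probe sets was not tested.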
